A study of Mus musculus with 5 samples.

Results

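GFP+ Prx1-derived cells sorted from injured hindlimb muscle were compared between the droplet library SC10, labelled d5 post-polytrauma, and the library SC9, which stands here for d5 post-fracture. The deposited label of SC9 reads d3 post-polytrauma. SC9 was taken as d5 post-fracture because its number of barcodes equals the cell number given for that condition in the source data of the study. It holds 2001 barcodes, against 6915 in SC5, whose label reads d5 post-fracture. The libraries are therefore named SC9 and SC10 throughout, and the median of each gene list other than cell type markers is also given with SC5 in the place of SC9, since many directions depend on that choice. With SC5 as the fracture library, 52 of the 87 named genes at least 2-fold apart between SC9 and SC10 lay on the other side of zero, the cartilage genes among them. If the label of SC9 holds, SC10 over SC9 compares d5 with d3 within polytrauma. If SC9 is d5 post-fracture, the condition of SC5 is unsettled, and SC10 over SC5 need not compare injuries at d5. The study reported chondrogenic markers after fracture only at d5, and a chondrocyte population at d5 post-fracture. The cartilage gene Col2a1 was lower in SC5 than in the uninjured library SC3, and far higher in SC9 than in either. The cartilage levels are themselves a result of the comparison below, so they cannot serve as support for the assignment of SC9. The assignment of the labels was not tested further.

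All mice carried Prx1Cre and the mTmG reporter on a C57BL6/J background. In such mice, cells that have expressed the limb-bud driver Prx1-Cre, and their progeny, turn from Tomato to GFP. The driver marks limb mesenchyme as a whole, including tendon, pericyte-like and skeletal cells, and not one cell type. Per the methods, the animals were males or females of 10 to 14 weeks, and each library pooled 2 mice. The fracture was a non-stabilized tibial fracture, and the polytrauma was the same fracture with mechanical injury of the adjacent hindlimb muscles. Muscle around the tibia was collected without periosteum or bone marrow, and GFP+ cells were sorted and passed to 10x 3′ libraries. With 1 library per injury no replicate check was possible, no test was run, and a difference between mice or between library preparations cannot be told apart from a difference between injuries. Genes are described as higher or lower where the levels differ by at least 2-fold.

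Skeletal muscle holds mesenchymal progenitors, also called fibro-adipogenic progenitors, which lie between the fibres and are marked by Pdgfra, Ly6a (Sca1) and Cd34. After a fracture, such cells can pass through a collagen-secreting, fibrogenic state and then form cartilage, in which Sox9 with Sox5 and Sox6 drives the matrix genes Col2a1 and Acan, before bone replaces the cartilage. Severe injury of the surrounding muscle is known to delay bone healing.

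Cells with 350 to 8000 detected genes, under 20% of counts on mitochondrial genes and at least 1000 unique molecular identifiers (UMIs) were retained. This left 1468 of 2001 barcodes in SC9 (73.4%) and 11603 of 13641 in SC10 (85.1%), together 13071 of the 29493 cells that the same filter left in all 5 libraries. A retained cell of SC9 held a median of 34949 UMIs and 5506 genes, against 16046 UMIs and 3779 genes in SC10. Barcodes recurred between the libraries. Of the SC9 barcodes, 944 (47.2%) were also in SC10, with a median of 42228 UMIs in SC9 and 870 in SC10, and 338 such cells that had passed the filter were left out of SC10. Among the retained cells of SC9, 869 had a barcode that SC10 shares (median 42462 UMIs) and 599 did not (median 19075 UMIs). The libraries also stood apart in sex-linked genes, with 27 UMIs of Xist in SC10 against 40201 in SC9, so only autosomal genes were compared, and the sex of the animals and the injury cannot be told apart. Values are given with and without the shared barcodes where the result depends on them.

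Levels are autosomal UMIs of all retained cells together, per 1000000 (CPM), from 47283910 UMIs in SC9 and 186566042 in SC10. Ratios are SC10 over SC9 on a log2 scale, with exact 95% intervals that cover counting error only. Of 29100 autosomal genes listed, 9462 had a mean of at least 5 CPM over both libraries. Of these, 99 (1.05%) were at least 2-fold higher and 655 (6.92%) at least 2-fold lower in SC10, while 8708 (92.0%) lay within 2-fold. Most genes past 2-fold were thus lower in SC10: 165 were at least 4-fold lower and 13 at least 4-fold higher. Counts of list members between SC9 and SC10 are to be read beside 6.92% lower and 1.05% higher over all genes. Members of gene lists on the X chromosome, such as Bgn, Timp1, Tnmd and Pgk1, were not compared, and members under the level are outside the counts. A gene under 5 CPM in either library reached the mean only through the other, which fixed its direction beforehand. Among the genes counted as lower in SC10 this held for Sp7, Dpp4, Chad and Rsad2, among others. The median log2 ratio over all genes was -0.04. Scaling by the median of ratios in place of the total moved that median to 0.19, and TMM scaling moved it to 0.17. The share of lower genes among the called ones was 86.9% with totals, 60.4% with the median of ratios and 63.5% with TMM, and 10.9% for SC10 over SC5. For SC10 over SC5 the median log2 ratio over all genes was 0.47. Of 8835 genes at the level there, 2289 were at least 2-fold higher and 279 at least 2-fold lower in SC10. List medians and counts with SC5 are to be read beside these values. Without the shared barcodes 257 of 9541 genes were higher and 802 lower. Among cells of 10000 to 30000 UMIs in both libraries, 303 of 9617 were higher and 1119 lower. Counts in those 2 settings are to be read beside these. In a summed level, fewer cells of a type and less RNA per cell cannot be told apart, so shares of cells are given beside the levels, each cell first thinned to 2000 UMIs (1438 cells of SC9 and 11485 of SC10).

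**Figure D1:**
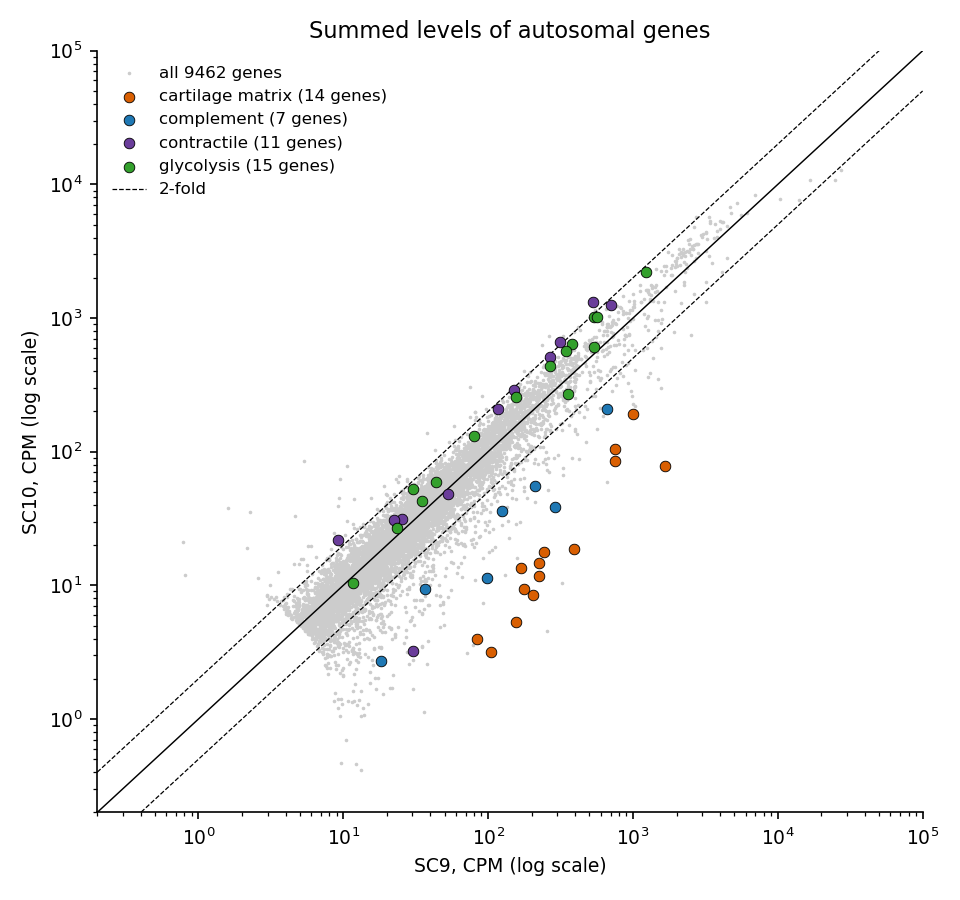
Summed level of each of the 9462 autosomal genes in SC9 (x axis, CPM, log scale) and SC10 (y axis, CPM, log scale), with 4 gene lists in colour, the line of equality and dashed lines at 2-fold. The 14 measured cartilage matrix genes and the 7 complement genes all lie under the lower dashed line, and the glycolysis genes lie between the lines, mostly above equality.

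The genes of cartilage matrix had the lowest median ratio of the 32 lists that are not cell type markers. Of 16 listed genes, 14 reached the level to be compared (Col10a1 and Matn1 did not) and all 14 were lower in SC10, with a median log2 ratio of -4.25 and a range of -5.06 to -2.39. Their summed level was 6160 CPM in SC9 and 567 CPM in SC10. Of the 12 genes with the lowest ratios among all genes with a mean of at least 50 CPM, 10 belonged to this list. The study defined its chondrocyte population by Col2a1, Acan and Fgfr3 on the same samples, so the direction of these genes is not independent evidence.

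Col2a1, the main fibrillar collagen of cartilage (ENSMUSG00000022483, chr15:97975602-98004695, minus strand, GRCm38), was at 1670 CPM in SC9 and 77.9 CPM in SC10, a log2 ratio of -4.42 (95% interval -4.45 to -4.40). The thinned cells with a UMI of Col2a1 made up 22.3% of SC9 and 1.48% of SC10, and the unthinned shares were 72.1% and 5.26%. Few cells carried most of the level: the 10% of SC9 cells with the most Col2a1 UMIs held 95.2% of them. In SC10 that part held 100%, since fewer cells than that had the gene at all. A cell with Col2a1 held on average 10.4 of its UMIs among 2000 in SC9 and 7.87 in SC10, a mean that includes cells with 1 UMI. Cells with at least 3 hematopoietic markers, which should lack Col2a1, showed it in 0 of 5 cells of SC9 (median depth 38650 UMIs) and 0 of 24 of SC10 (median 10960 UMIs), counts that allow shares of up to 52.2% and 14.2%. In cells with at least 3 of the 5 pericyte markers Rgs5, Kcnj8, Abcc9, Notch3 and Cspg4, called pericyte-marker cells here, it was detected in 11 of 80 cells of SC9 (13.8%, 95% interval 7.07 to 23.3, median depth 37176 UMIs) and in 1 of 89 of SC10 (1.12%, median 10670 UMIs), after the same thinning. The markers were counted in all UMIs of a cell, so deeper cells pass more readily, with 80 of 1438 cells in SC9 and 89 of 11485 in SC10. The Col2a1 shares over all cells lay within the intervals of pericyte-marker cells (0.0284 to 6.10 in SC10, resting on 1 cell). Pericyte-marker cells are not a reference free of cartilage genes, since the study saw chondrogenic engagement in all clusters but those of Spp1/Lgals3. With so wide an interval in SC10, no conclusion about Col2a1 is drawn from this comparison.

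Collagen IX, which coats the collagen II fibril, was lower through all 3 of its chains. Col9a3 was at 392 CPM in SC9 and 18.8 CPM in SC10 (log2 ratio -4.39), Col9a1 at 226 and 11.7 CPM (-4.27) and Col9a2 at 170 and 13.4 CPM (-3.67). Collagen XI, which sits in the core of the same fibril, differed between its cartilage chains. Col11a2 was at 178 CPM in SC9 and 9.44 CPM in SC10 (-4.24). Col11a1, which fibroblasts can also make, was at 1000 and 191 CPM (-2.39), the ratio of the list nearest to zero.

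Matrilins link the collagen network to proteoglycans. Matn3 was at 203 CPM in SC9 and 8.54 CPM in SC10 (-4.57), and Matn4 at 243 and 17.8 CPM (-3.77). Hapln1, the link protein that binds aggrecan to hyaluronan, was at 225 and 14.8 CPM (-3.92). Ucma, a small secreted protein of cartilage, had the lowest ratio of the list at 105 and 3.16 CPM (-5.06, 95% interval -5.18 to -4.93). Cnmd (chondromodulin), a cartilage protein that inhibits vessel growth, was at 157 CPM in SC9 and 5.33 CPM in SC10 (-4.88). The remaining members are named to complete the list and not by their ratios. Acan, the core protein of aggrecan, was at 747 and 85.9 CPM (-3.12), Comp at 751 and 104 CPM (-2.85) and Snorc, listed in the files as 3110079O15Rik, at 84.4 and 3.94 CPM (-4.42).

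**Figure D2:**
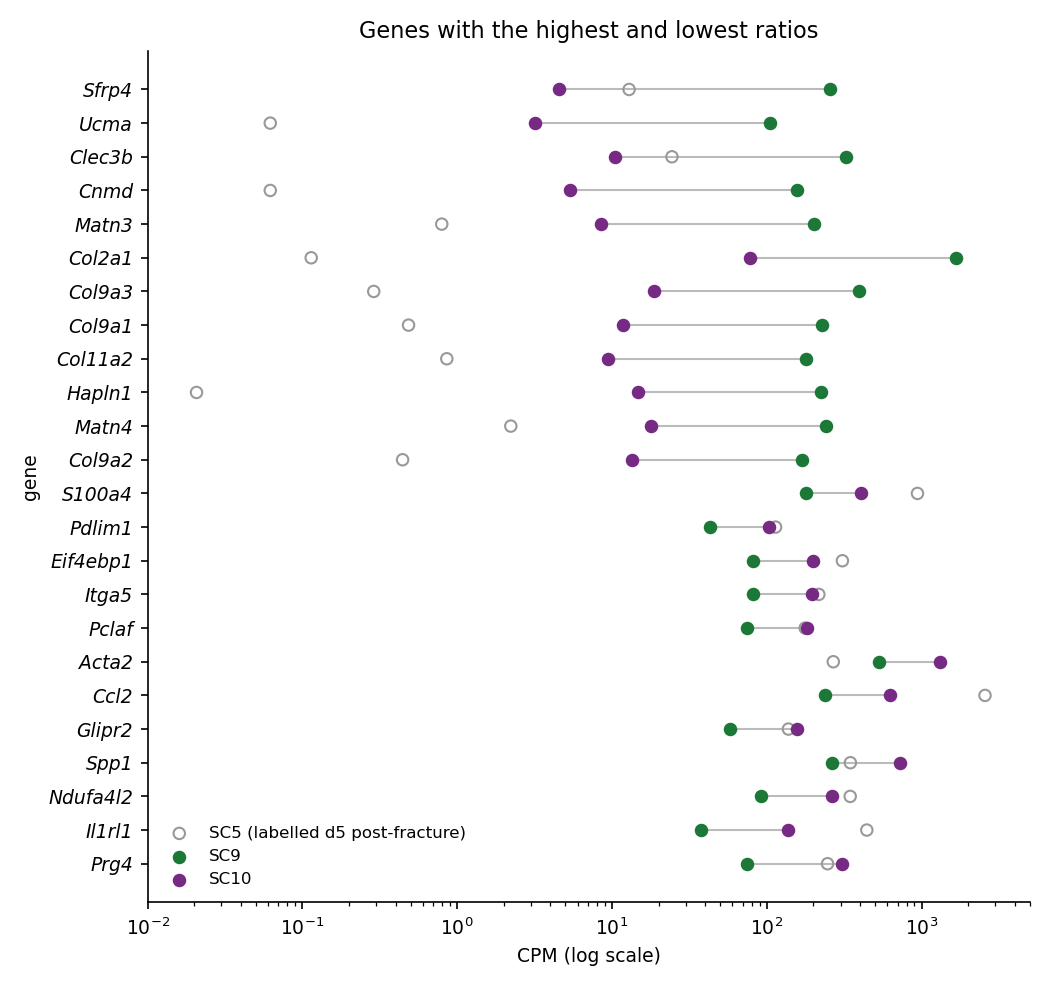
Levels of the 12 genes with the highest and the 12 with the lowest ratio among genes with a mean of at least 50 CPM, in SC9, SC10 and, for reference, SC5 (x axis, CPM, log scale), 1 row per gene. The lowest 12 hold 10 cartilage matrix genes with Sfrp4 and Clec3b, and for each of those 10 SC5 lies below SC10.

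The promoters of Matn3 and Col11a2, lower in SC10, and of Spp1, a bone matrix gene higher in SC10, are shown so that their sequence can be set beside the levels. They were chosen after the values were seen. They are the 250 bases before the RefSeq start in GRCm38.p6, 5′ to 3′ on the strand of the gene, with capitals marking matches on either strand to 4 motifs. The core promoter motif was TATAAA, and the motif of the factor Sp1 was GGGCGG. Proteins of the Sox family bind the motifs ACAAAG and, with 1 base exchanged, ACAATG.
Matn3 (chr12:8947679-8947928, plus strand): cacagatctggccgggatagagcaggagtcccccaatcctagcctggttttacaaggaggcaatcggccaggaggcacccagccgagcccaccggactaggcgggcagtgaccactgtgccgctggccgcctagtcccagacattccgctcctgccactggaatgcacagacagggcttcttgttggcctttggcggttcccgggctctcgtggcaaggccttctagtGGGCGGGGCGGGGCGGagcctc
Col11a2 (chr17:34038888-34039137, plus strand): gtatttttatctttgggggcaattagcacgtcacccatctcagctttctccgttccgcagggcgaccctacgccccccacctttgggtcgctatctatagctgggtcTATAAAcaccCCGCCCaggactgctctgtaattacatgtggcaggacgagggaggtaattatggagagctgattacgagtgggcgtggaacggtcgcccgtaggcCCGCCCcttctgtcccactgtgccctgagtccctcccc
Spp1 (chr5:104434861-104435110, plus strand): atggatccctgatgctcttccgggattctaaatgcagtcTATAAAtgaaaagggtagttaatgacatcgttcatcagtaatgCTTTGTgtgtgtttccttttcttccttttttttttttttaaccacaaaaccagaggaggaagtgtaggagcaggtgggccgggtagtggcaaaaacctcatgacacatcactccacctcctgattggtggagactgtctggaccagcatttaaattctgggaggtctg
The Matn3 window held 3 overlapping matches to GGGCGG, the last starting 12 bases before the start, and no TATAAA. The Col11a2 window held TATAAA 143 bases before the start and GGGCGG on the minus strand at 133 and 38 bases before it. The Spp1 window held TATAAA 211 bases and ACAAAG, on the minus strand, 168 bases before the start. Over 32851 windows of the same length, 16.5% held the motif ACAAAG and 10.7% the motif ACAATG, while TATAAA was found in 12.4% and GGGCGG in 32.7%. Of 10 windows found for 8 of the 12 lowest genes, 0 held either Sox motif, 1 held the core promoter motif and 4 the Sp1 motif. Of 10 windows found for 8 of the 12 highest genes, 2 held ACAAAG (both of Spp1), 2 the other Sox motif (both of Il1rl1), 2 the core promoter motif and 4 the Sp1 motif. These are matches of letters and not sites shown to be bound.

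Cells in which several cartilage genes were detected made up a smaller share of SC10 than of SC9. At least 2 cartilage matrix genes were detected in 845 of 1438 thinned cells of SC9 (58.8%, 95% interval 56.2 to 61.3) and in 1355 of 11485 of SC10 (11.8%, 95% interval 11.2 to 12.4). At least 5 were detected in 17.9% of SC9 and 0.914% of SC10. The distribution over SC9 cells had a second group at 9 or more genes, a limit set after seeing it, which held 138 cells of SC9 (9.60%) and 60 of SC10 (0.522%). No cartilage gene was detected in 19.3% of SC9 and 61.5% of SC10. The unthinned shares with at least 2 genes were 95.6% and 43.4%. Pericyte-marker cells of the same libraries were set beside these shares. It is not settled that those of SC9 are a separate cell type. Clec3b and Sfrp4 were each detected in 31.2% of them, against 20.9% and 14.7% of all thinned SC9 cells. At least 2 cartilage genes were detected in 26 of 80 such cells of SC9 (32.5%, 95% interval 22.4 to 43.9) and in 3 of 89 of SC10 (3.37%, 0.701 to 9.54), and at least 5 in 3 cells of SC9 (3.75%, 0.780 to 10.6) and 1 of SC10 (1.12%, 0.0284 to 6.10). Acan alone was detected in 22.5% and 6.74% of them. The SC9 shares of the list over all cells lay above these intervals, as did the SC10 share with at least 2 genes. The SC10 shares with at least 5 or at least 9 genes lay within intervals that rest on 1 of 89 cells. Such wide intervals give no reference for those SC10 shares. By number of genes detected, SC10 cells fell to 4 at 6 genes and rose to 17 at 10 and 17 at 11 genes. The SC10 cells with many cartilage genes thus formed a second group, as in SC9. The part of free RNA in these shares was not tested.

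**Figure D3:**
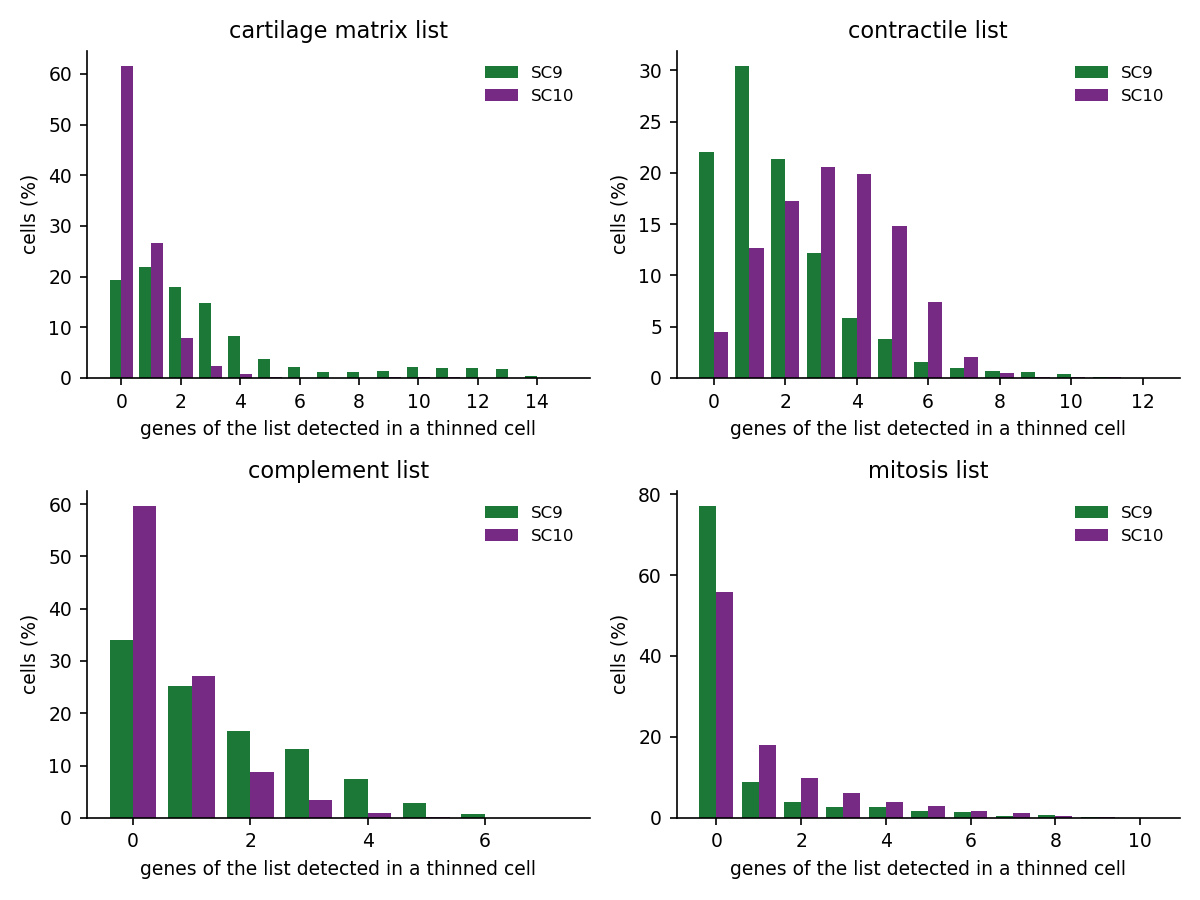
Share of thinned cells (y axis, percent) by the number of genes of a list detected among 2000 UMIs (x axis), for SC9 and SC10, in 1 panel each for the cartilage matrix, contractile, complement and mitosis lists. For cartilage matrix genes, 61.5% of SC10 cells sit at 0 genes, and cells with 9 or more genes make up 9.60% of SC9 and 0.522% of SC10.

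The size of the cartilage difference depended on which SC9 cells were used, while its direction did not. Col2a1 was at 2000 CPM in the 869 SC9 cells with a barcode also in SC10 and at 607 CPM in the 599 others, which left a log2 ratio of -2.96 against SC10. All 14 genes stayed at least 2-fold lower in SC10 in those 599 cells (median -3.17) and among cells of 10000 to 30000 UMIs in both libraries (median -3.43), the latter chosen after seeing the data. With SC5 in place of SC9, 10 genes reached the level, all of them at least 2-fold higher in SC10, and the median of the 14 was 4.75. Those under 5 CPM in SC5, such as Col2a1, Hapln1 and Col9a3, reached the level only through SC10, which fixed their direction beforehand. SC5 held 0.114 CPM of Col2a1, 0.795 CPM of Matn3, 5.17 CPM of Acan and 20.9 CPM of Comp. Its Col2a1 level rested on 11 UMIs, where the uninjured library SC3 was at 8.42 CPM and SC9 at 1670 CPM. Matn3 was at 9.65 CPM in SC3, while Col9a1 went the other way, at 0.124 CPM in SC3 and 0.485 CPM in SC5. Hapln1 rested on 2 UMIs in SC5, a log2 ratio of 9.48 with an interval of 7.63 to 12.53.

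The regulators of cartilage formation were lower as well. Of 7 measured regulators, 6 were at least 2-fold lower in SC10 and 0 higher (median -1.77), and 2 of 9 listed did not reach the level. Sox6, a partner of Sox9 on cartilage enhancers, was at 28.4 CPM in SC9 and 2.60 CPM in SC10 (-3.45), and Sox5, the other partner, at 37.0 and 10.8 CPM (-1.77). Fgfr3, the receptor that restrains chondrocyte growth, was at 30.1 and 2.77 CPM (-3.45). Wwp2, the host gene of a cartilage microRNA, was at 210 and 41.8 CPM (-2.33). Sox9, named for its role and not by its ratio, was at 414 and 136 CPM (-1.61), and was detected in 37.9% of thinned SC9 cells and 20.9% of SC10 cells. The unthinned shares were 83.4% and 64.0%. Against SC5 the regulators ran the other way, with a median of 2.13.

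Bone genes split into a lower set and Spp1. Of 6 measured osteogenic genes 4 were lower and 1 higher in SC10, with a median of -2.33, and 4 of 10 autosomal members lay below the level. Sp7 (osterix), the factor that commits cells to osteoblasts, was at 13.3 CPM in SC9 and 1.05 CPM in SC10 (-3.67). Alpl, the phosphatase of mineralizing cells, was at 92.8 and 7.39 CPM (-3.65), and Dlx5, a homeobox factor upstream of osterix, at 15.2 and 2.26 CPM (-2.75). Ibsp, bone sialoprotein, was at 86.3 and 22.9 CPM (-1.92). Its sign depended on the cells used. Without the cells that carry at least 2 cartilage genes, a cut that took most cells of SC9, the ratio was 0.97. Spp1, osteopontin, was higher in SC10, at 264 and 731 CPM (1.47), and was detected in 17.4% of thinned SC9 cells and 35.2% of SC10 cells (unthinned 50.5% and 64.1%). In SC10, Spp1 was detected in 14 of the 24 hematopoietic-marker cells (58.3%) and in 12 of the 89 pericyte-marker cells (13.5%). Spp1 is also a marker of the Spp1/Lgals3 population that the study described, so its level is not read here as bone formation. Runx2, named for its role, was at 61.1 and 63.4 CPM (0.05). In SC5 Sp7 was at 0.0826 CPM and Ibsp at 1 UMI, giving SC10 over SC5 a ratio of 11.11 (8.63 to 16.42) for Ibsp, and the list median was 1.74.

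The fibrogenic genes, which mark matrix-secreting fibroblasts, lay below zero for all 6 members and nearer to it than the cartilage genes. Of the 6 measured genes, Col1a1 alone reached 2-fold, and the list had a median of -0.77. With the median of ratios as the scale, 0 of the 6 reached 2-fold. The study chose these genes on the same samples, so their direction is not independent evidence. Col1a1, the main chain of collagen I, was at 24900 CPM in SC9 and 10700 CPM in SC10 (-1.22). Col3a1 of reticular collagen III was at 14100 and 7680 CPM (-0.88) and Aspn, asporin, at 1440 and 726 CPM (-0.99). Postn (periostin), a matrix protein of wound fibroblasts, was at 4430 and 2790 CPM (-0.67), Sparc, which binds collagen, at 10400 and 7830 CPM (-0.40), and Col5a1 of collagen V at 1200 and 1070 CPM (-0.16). Nearly all cells carried several of them: 99.9% of thinned cells in each library had at least 2 of the 6, and 88.0% of SC9 and 87.1% of SC10 cells had at least 5. With SC5 as the fracture library, 5 of the 6 were higher and 0 lower in SC10 (median 1.85), and Col1a1 was at 3040 CPM in SC5.

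**Figure D4:**
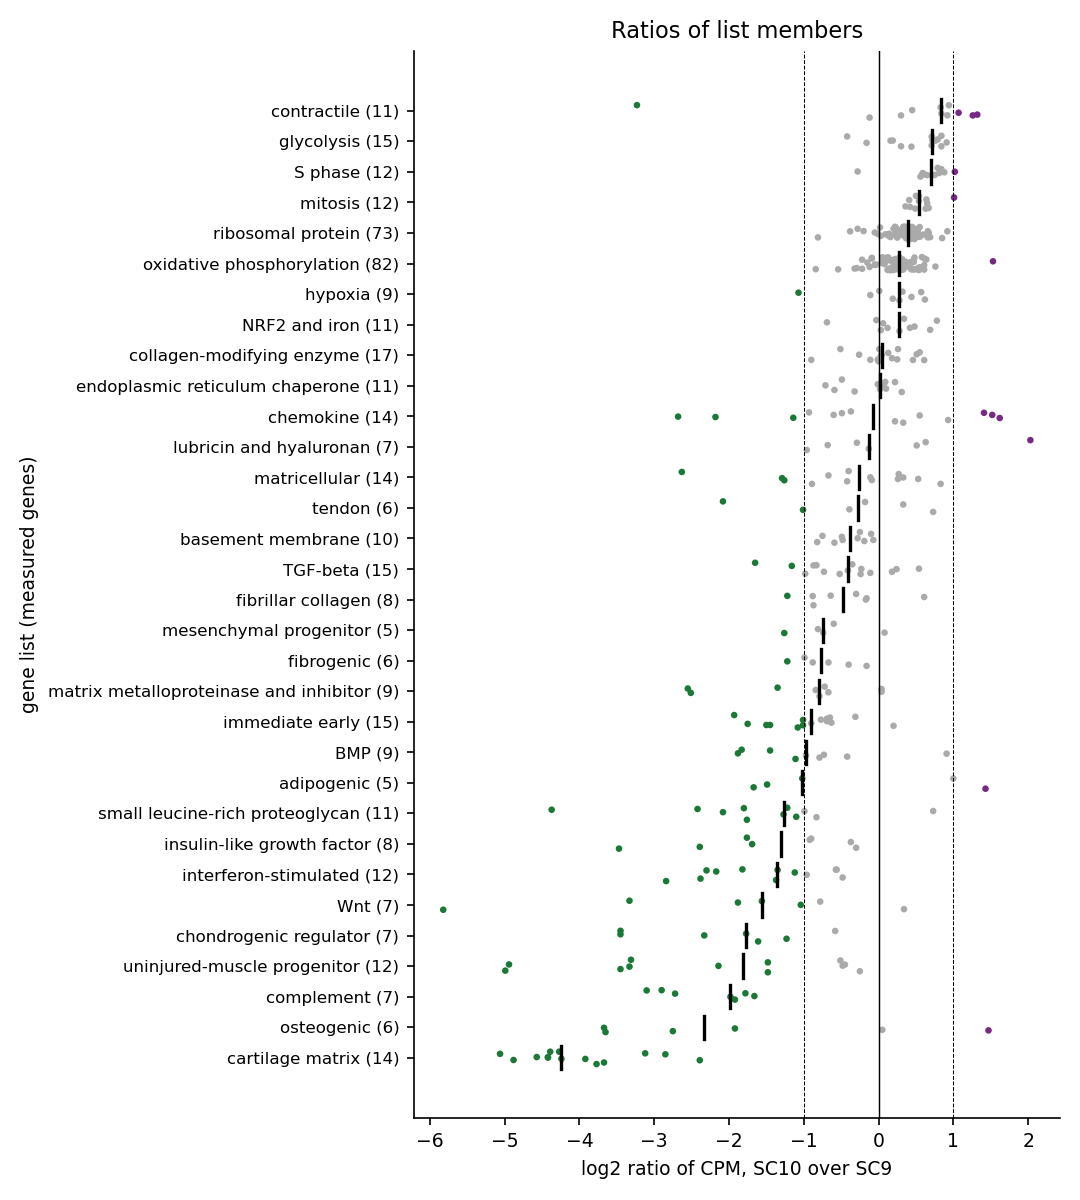
Log2 ratio of CPM, SC10 over SC9, of each measured member (points) of the 32 lists that are not cell type markers, with the list median as a bar and dashed lines at 2-fold (x axis, log2). Points past 2-fold are green where higher in SC9 and purple where higher in SC10. Cartilage matrix lies lowest with a median of -4.25 and contractile genes highest with 0.84.

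Other matrix lists ranged from lower to level. Of 8 fibrillar collagens 1 was lower (median -0.47), with Col27a1 at 195 CPM in SC9 and 107 CPM in SC10 (-0.87). Where 6.92% of all genes were lower, 1 of 8 does not set this list apart. Of 17 collagen-modifying enzymes 0 were past 2-fold (median 0.04). The lowest of them was Plod2, a lysyl hydroxylase for cross-links, at 553 and 296 CPM (-0.90), and Loxl3 of the lysyl oxidase family was at 121 and 184 CPM (0.61). Of 10 basement membrane genes 0 were past 2-fold (median -0.38). With SC5 in place of SC9 these lists ran higher in SC10, with medians of 1.73 for fibrillar collagens (7 of 8 past 2-fold), 0.66 for collagen-modifying enzymes (7 higher) and 0.86 for basement membrane (3 higher), and Col27a1 was at 1.11. Over all genes with SC5, 2289 of 8835 were higher and the median was 0.47, so the count for basement membrane does not set that list apart.

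Small leucine-rich proteoglycans, which space collagen fibrils, were lower for 8 of 11 measured members (median -1.27). Fmod (fibromodulin) was at 380 CPM in SC9 and 89.6 CPM in SC10 (-2.08), Prelp at 134 and 38.4 CPM (-1.80) and Omd (osteomodulin) at 22.8 and 4.27 CPM (-2.42). Chad (chondroadherin), a cartilage member, was at 9.62 and 0.466 CPM (-4.37). At least 2 members were detected in 95% of thinned SC9 cells and 73.6% of SC10 cells (unthinned 99.0% and 97.2%). Matricellular proteins, which signal from the matrix to cells, were lower for 3 of 14 (median -0.26): Nov at 140 and 22.6 CPM (-2.63), Cyr61 at 765 and 314 CPM (-1.29) and Sparcl1 at 54.6 and 22.8 CPM (-1.26). Among proteases, 3 of 9 measured members were lower (median -0.79). Mmp13, the collagenase of maturing cartilage, was at 112 and 19.5 CPM (-2.51), the stromelysin Mmp3 at 92.7 and 15.9 CPM (-2.55) and the gelatinase Mmp2 at 1040 and 409 CPM (-1.35). Of 6 tendon genes 2 were lower (median -0.28), namely Fmod and Egr1, and Scx, the tendon factor, was at 50.1 and 38.3 CPM (-0.39). Both lower genes belong to another list as well, Fmod to the proteoglycans and Egr1 to the immediate early genes. All 4 lists turned with SC5. The medians of SC10 over SC5 were 1.09 for small leucine-rich proteoglycans, 1.28 for matricellular genes, 0.60 for proteases and 1.44 for tendon genes. Of their members 5, 10, 3 and 4 were at least 2-fold higher in SC10, and 0 were lower except for 1 matricellular gene. Beside 2289 of all 8835 genes higher with SC5 and a median of 0.47, the proteases did not stand apart.

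Genes of the progenitors of uninjured muscle were lower in SC10. Of 12 such genes 8 were lower and 0 higher (median -1.81). Clec3b (tetranectin) was at 323 CPM in SC9 and 10.5 CPM in SC10 (-4.94, 95% interval -5.01 to -4.87), and was detected in 20.9% and 1.78% of thinned cells (unthinned 39.4% and 5.18%). In pericyte-marker cells the shares of Clec3b were 31.2% and 2.25%, so these cells give no lower level to set the shares over all cells against. Pi16, a marker of resting adventitial fibroblasts, was at 131 and 11.9 CPM (-3.45). Dpp4, which marks the same cells, was at 13.3 and 0.418 CPM (-4.99), and the growth factor Gdf10 at 38.6 and 3.84 CPM (-3.33). These 4 genes were lower in SC10 with SC5 as well, though less far apart: Clec3b was at 24.4 CPM and Pi16 at 29.6 CPM in SC5, and the list median was -0.47. Of the 5 mesenchymal progenitor genes, only the surface protein Cd34 was past 2-fold, at 110 CPM in SC9 and 45.8 CPM in SC10 (-1.26). The list median was -0.74, with Pdgfra, a growth factor receptor, at 144 and 81.9 CPM (-0.81), Ly6a at 598 and 357 CPM (-0.74) and the chemokine Cxcl12 at 502 and 331 CPM (-0.60). With SC5 the median was -0.35. Prrx1, the limb mesenchyme factor whose enhancer drives the Cre, was level at 281 and 297 CPM (0.08). Cells with 2 or more of the 5 genes made up 43.5% of thinned SC9 cells and 43.0% of SC10 cells (unthinned 93.3% and 94.6%). Both libraries thus carried the progenitor markers of their labelled lineage.

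The lowest ratio of all genes with at least 50 CPM was that of Sfrp4, a secreted inhibitor of Wnt signals. It was at 256 CPM in SC9 and 4.53 CPM in SC10 (-5.82, 95% interval -5.92 to -5.72) and was detected in 14.7% and 0.810% of thinned cells (unthinned 36.9% and 3.61%). In pericyte-marker cells the shares of Sfrp4 were 31.2% and 1.12%. The level in SC5 was 12.9 CPM, so SC10 was lower against that library too (-1.51). Of 7 measured Wnt genes 5 were lower (median -1.56), with 6 of 13 below the level. Beside Sfrp4, Frzb was at 34.7 CPM in SC9 and 3.45 CPM in SC10 (-3.33), Dkk2 at 41.2 and 11.2 CPM (-1.88) and Dkk3 at 81.8 and 27.8 CPM (-1.56). These products belong to secreted antagonist families of the Wnt pathway. With SC5 the list turned, with a median of 1.74, 4 genes higher and 1 lower, and Frzb and Dkk3 were at 1.83 and 2.27.

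Insulin-like growth factor genes were lower for 4 of 8 measured members (median -1.31). Igf1, the ligand, was at 1560 CPM in SC9 and 298 CPM in SC10 (-2.39). Of the binding proteins, Igfbp5 was at 659 and 59.6 CPM (-3.47), Igfbp4 at 2510 and 743 CPM (-1.76) and Igfbp6 at 306 and 95.1 CPM (-1.69). At least 2 of the list were detected in 89.6% of thinned SC9 cells and 65.0% of SC10 cells (unthinned 99.3% and 98.0%). Of 9 BMP genes 4 were lower (median -0.97): the ligand Bmp4 at 18.5 and 5.20 CPM (-1.83), the pseudoreceptor Bambi at 45.6 and 21.1 CPM (-1.11), and the target genes Id2 at 95.2 and 25.9 CPM (-1.88) and Smad6 at 10.1 and 3.69 CPM (-1.45). Beside 6.92% of all genes, 2 of 15 TGF-beta genes were lower (median -0.41), a count too small to set the list apart. They were Ltbp4, which stores latent TGF-beta in the matrix, at 65.3 and 20.9 CPM (-1.65), and the signal transducer Smad3 at 23.1 and 10.3 CPM (-1.16). The medians of these 3 lists were positive with SC5, at 0.83, 0.36 and 0.73, where the median over all genes was 0.47. That of the BMP genes thus lay below all genes.

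Complement genes were lower throughout, for 7 of 7 measured members (median -1.98). C3, the central component, was at 290 CPM in SC9 and 38.9 CPM in SC10 (-2.90), and C4b at 98.2 and 11.4 CPM (-3.10). Cfb, which forms a C3 convertase, was at 18.1 and 2.74 CPM (-2.72), and C2, a protease of the classical pathway, at 36.8 and 9.35 CPM (-1.98). At least 2 complement genes were detected in 40.8% of thinned SC9 cells and 13.3% of SC10 cells (unthinned 88.0% and 56.6%). All 7 stayed lower without the shared barcodes (median -1.97) and at matched depth (median -2.24). With SC5 only 1 was lower, and the median was -0.19. Interferon-stimulated genes were lower for 8 of 12 (median -1.36, and -0.31 with SC5), such as Rsad2 at 11.7 and 1.63 CPM (-2.84), Ifit3 at 30 and 5.76 CPM (-2.38), Ifit1 at 60.7 and 12.3 CPM (-2.30) and Iigp1 at 62.1 and 13.8 CPM (-2.17). At least 2 of them were detected in 20.9% and 9.11% of thinned cells (unthinned 73.8% and 45.4%).

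Chemokine genes differed in both directions, with 3 higher and 3 lower of 14 (median -0.07). Ccl2, which draws monocytes, was higher in SC10 at 237 CPM in SC9 and 630 CPM in SC10 (1.41), and was detected in 14.3% and 37.5% of thinned cells (unthinned 40.3% and 65.1%). In hematopoietic-marker cells of SC10 the share was 29.2%, and in pericyte-marker cells it was 13.8% in SC9 and 37.1% in SC10. Ccl9, another monocyte attractant, was at 5.14 and 15.8 CPM (1.62), and Cx3cl1 (fractalkine) at 8.57 and 24.5 CPM (1.52). Ccl11 (eotaxin), which draws eosinophils, was lower at 48.6 and 7.57 CPM (-2.68), as was Ccl8 at 31.1 and 6.84 CPM (-2.18). Ccl2 was at 2570 CPM in SC5, and SC10 was therefore lower against that library (-2.03). The list median with SC5 was -1.17, with 1 gene higher and 7 lower.

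The highest ratio among genes with a mean of at least 50 CPM was that of Prg4, lubricin, a glycoprotein that lubricates joint and tendon surfaces. It was at 75 CPM in SC9 and 307 CPM in SC10 (2.03) and was detected in 7.65% and 20.9% of thinned cells (unthinned 37.9% and 48.7%), against 11.2% and 5.62% of the pericyte-marker cells of SC9 and SC10. Of the 7 measured lubricin and hyaluronan genes Prg4 alone was past 2-fold (median -0.13). The hyaluronan synthases differed in sign, with Has1 at 313 and 161 CPM (-0.96) and Has2 at 111 and 172 CPM (0.63). The ratio of Prg4 was 2.08 without the shared barcodes and 2.39 at matched depth, and with SC5, at 247 CPM, it was 0.31, as was the list median.

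Further genes among the 12 highest ratios share no list. Il1rl1, the receptor of interleukin 33, was at 37.8 CPM in SC9 and 137 CPM in SC10 (1.86), with 443 CPM in SC5. Ndufa4l2, a hypoxia-induced relative of a respiratory subunit, was at 91.2 and 263 CPM (1.53), with 346 CPM in SC5. Itga5, the fibronectin receptor subunit, was at 81.0 and 197 CPM (1.28), and Pdlim1, an actin-associated adaptor, at 42.8 and 103 CPM (1.26). Ndufa4l2, Itga5 and Pdlim1 had levels in SC5 above those in SC10. S100a4, a calcium-binding protein of motile fibroblasts, was at 178 and 404 CPM (1.18), with 941 CPM in SC5. Eif4ebp1, a repressor of translation, was at 81.8 and 199 CPM (1.28). Pclaf, which binds the replication clamp, was at 74.6 and 181 CPM (1.28), and Glipr2, a Golgi-associated protein, at 58.2 and 156 CPM (1.42).

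Contractile genes had the highest median of the lists that are not cell type markers. Of 11 measured members 3 were higher and 1 lower in SC10, with a median of 0.84. Acta2, smooth muscle actin, was at 531 CPM in SC9 and 1320 CPM in SC10 (1.32), Tpm2, a tropomyosin, at 316 and 662 CPM (1.07), and Des, desmin, at 9.14 and 21.8 CPM (1.26). Myh11, the smooth muscle myosin, was lower at 30.2 and 3.22 CPM (-3.23). At least 2 contractile genes were detected in 47.6% of thinned SC9 cells and 82.8% of SC10 cells, and Acta2 in 25.5% and 65.4%. The unthinned shares were 94.8% and 98.0% for the list and 66.3% and 88.8% for Acta2. Acta2 was detected in 16.7% of the hematopoietic-marker cells of SC10, and in 47.5% and 87.6% of the pericyte-marker cells of SC9 and SC10. The calls did not hold in every set of cells: without the shared barcodes Acta2 was at 0.74 and 0 members were higher, and at matched depth Acta2 was at 0.62, Des at -0.41 and the list median at 0.14. With SC5 in place of SC9, 7 members were higher and 0 lower (median 1.54).

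**Figure D5:**
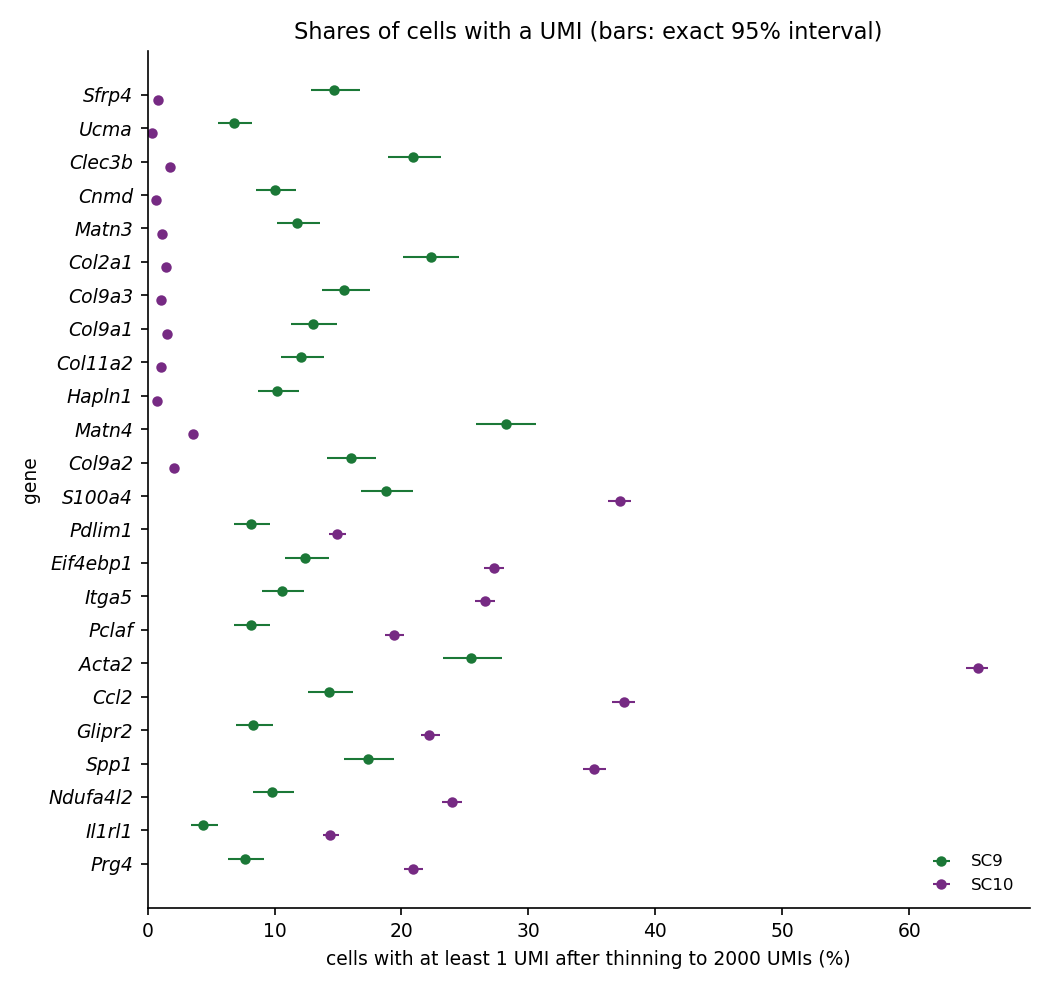
Share of thinned cells with at least 1 UMI (x axis, percent, with exact 95% intervals of counting error) in SC9 and SC10 for the same 24 genes as in the plot of levels by gene, 1 row per gene. Acta2 was detected in 65.4% of SC10 and 25.5% of SC9 cells and Col2a1 in 1.48% and 22.3%. The 24 genes were picked by their ratios between these same libraries, so gaps between their intervals follow largely from that choice.

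Metabolic lists differed little gene by gene. Of 15 glycolysis genes 0 were past 2-fold, yet 13 were above zero and the median was 0.71. Pkm, pyruvate kinase, was at 542 CPM in SC9 and 1020 CPM in SC10 (0.91), Gapdh at 1240 and 2210 CPM (0.84) and Ldha, which makes lactate, at 568 and 1020 CPM (0.84). The glucose carrier Slc2a1 was at 30.5 and 52.8 CPM (0.79). Without the shared barcodes 7 of the 15 passed 2-fold, where 257 of all 9541 genes were higher and 802 lower. With SC5, 0 glycolysis genes were higher and 2 lower (median -0.48). Of 9 hypoxia genes 1 was lower (median 0.28), the vasodilator peptide Adm at 31.4 and 14.9 CPM (-1.07). Of 82 oxidative phosphorylation genes 1 was higher (median 0.28), which is Ndufa4l2. Over all genes 6.92% were lower and 1.05% higher, so neither the hypoxia nor the oxidative phosphorylation count sets its list apart. Of 73 ribosomal protein genes 0 were past 2-fold (median 0.40), of 11 NRF2 and iron genes 0 (median 0.28) and of 11 endoplasmic reticulum chaperone genes 0 (median 0.02). Small shifts were mostly upward: 67 of the 73 ribosomal protein genes and 69 of the 82 oxidative phosphorylation genes lay above zero. So did 9 of the 11 NRF2 and iron genes and 7 of the 9 hypoxia genes, but only 6 of the 11 chaperones. Hmox1, heme oxygenase, was at 86.2 and 148 CPM (0.78). With SC5 the medians of the hypoxia, oxidative phosphorylation, ribosomal protein and NRF2 and iron lists turned, to -0.44, -0.20, -0.53 and -1.06, and that of the chaperones was 0.27. Ribosomal protein genes were then lower for 14 and NRF2 and iron genes for 7, with Hmox1 at 465 CPM in SC5 (-1.66). Of 5 adipogenic genes 1 was higher and 3 were lower (median -1.02). Fabp4, a fatty acid carrier, was at 23.2 and 62.7 CPM (1.43), and Lpl, which splits blood lipids, at 94.5 and 29.6 CPM (-1.67). The adipogenic median with SC5 was 0.34.

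Genes of dividing cells had positive medians, and 1 gene of each list passed 2-fold. Of 12 S phase genes 1 was higher (median 0.70), Mcm5 of the replicative helicase at 19.4 and 39.2 CPM (1.02). Of 12 mitosis genes 1 was higher (median 0.54), Birc5 (survivin) at 86.5 and 174 CPM (1.01). At least 2 mitosis genes were detected in 14.3% of thinned SC9 cells and 26.3% of SC10 cells, and at least 2 S phase genes in 10.5% and 19.2%. Without thinning the mitosis shares were 40.7% and 56.6%, and the S phase shares lay the other way, at 77.8% and 69.4%. Without the shared barcodes, 10 of the 12 mitosis genes and 7 of the 12 S phase genes passed 2-fold. Over all genes in that setting, 257 of 9541 were higher and 802 lower. With SC5 the medians were 0.77 and 0.36.

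Immediate early genes, which cells switch on within minutes of stimulation or handling, were lower for 7 of 15 (median -0.90). The phosphatase Dusp1 was at 993 CPM in SC9 and 260 CPM in SC10 (-1.93), the factor Atf3 at 621 and 184 CPM (-1.75), Zfp36, which shortens messages, at 919 and 326 CPM (-1.5) and Klf4 at 1380 and 505 CPM (-1.45). With SC5 the list ran the other way, 10 higher and 0 lower (median 1.86), with Dusp1 at 39.7 CPM in SC5. The part of tissue dissociation in these levels was not tested.

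Markers of other cell types were low. Hematopoietic markers summed to 15.7 CPM in SC9 and 21.2 CPM in SC10, with Ptprc at 0.254 and 0.289 CPM, and at least 2 of the 7 were detected in 1 and 25 thinned cells. Endothelial markers summed to 10.5 and 3.12 CPM and myogenic markers to 0.360 and 0.895 CPM, with Pax7 at 0 in SC9. Erythroid markers were higher in SC10, summing to 3.07 and 65.6 CPM, and both measured globin genes were past 2-fold. The Schwann list had 1 measured gene, S100b, which cartilage cells also express, at 55.7 and 9.24 CPM (-2.59). Pericyte markers were lower for 5 of 7 and higher for 1 (median -2.10, and 0.79 with SC5), and summed to 259 and 109 CPM. Rgs5, which marks pericytes, was at 107 and 18.4 CPM (-2.54), and Abcc9 at 14 and 1.08 CPM (-3.69). At least 2 pericyte markers were detected in 3.06% of thinned SC9 cells and 1.45% of SC10 cells, and their part in the ratios of Myh11 and Des was not tested.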

How the data were processed

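Single-cell RNA libraries of sorted GFP+ cells were analysed from matrices of counts that the authors deposited, whole numbers of UMIs per gene and barcode without normalization. The submitters' processing notes name mm10, Cell Ranger (3.1.0 in the matrix headers) and Seurat 3.1.2. Cells were kept by the limits given above, no doublets were called or removed, and cells over 2 times the median UMIs were left out as an alternative. Positions were found for 30934 genes (99.6%). UMIs were summed per library and scaled to CPM. Ratios had exact (Clopper-Pearson) 95% intervals, as had shares of cells after thinning with seed 1, and they cover counting error only. No test was run with 1 library per condition. Named genes were the 12 highest and 12 lowest ratios among genes with a mean of at least 50 CPM, all mesenchymal and fibrogenic genes, and up to 4 members with the largest absolute log2 ratio of each other list of 5 or more. Genes outside this rule are named as such. A gene of the lists is not reported here, and its list was summarised without it. The libraries, lists and alternatives were chosen with earlier results of these data known, and the depth-matched alternative (10000 to 30000 UMIs per cell) after seeing the data. Computation used Python 3.11.15, pandas 2.3.3, scipy 1.17.1, matplotlib 3.10.9, numpy 2.4.6, and edgeR 4.0.16 in R 4.3.3 for TMM scaling. Promoter windows came from RefSeq (GRCm38.p6).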

Additional observations from a re-analysis of the deposited data

Results flagged for a closer look

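Sex-linked genes were left out of the comparison and showed a signal there. The Y-linked gene Ddx3y had 12205 UMIs in the retained cells of SC10 and 4 or fewer in each of the other 4 libraries. The X-linked gene Xist had 40201 UMIs in SC9, 18126 to 44314 in the other 3 libraries with little Ddx3y, and 27 in SC10. SC10 thus stood apart from SC9 and from SC5 in both genes, and the sex of the animals and the injury cannot be told apart in these libraries.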

How the results depend on the processing

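No paired analysis was possible because each condition has 1 library, and for the same reason no library could be left out. Depth limits the comparison through SC9, whose cells are few and deeper. Of 14 alternatives and 1 more chosen after seeing the data (cells of 10000 to 30000 UMIs, 501 in SC9 and 8133 in SC10), the largest departures came from using SC5 as the fracture library. The other alternatives kept the sign of 86 or all 87 of the named genes past 2-fold, with Ibsp at 0.97 when cells with at least 2 cartilage genes were left out and Des at -0.41 at matched depth. For some of them this was fixed beforehand. Level filters leave each ratio as it is, and the other scalings moved all ratios alike, by 0.20 to 0.24. Neither can turn a gene past 2-fold, and the 87 genes were picked on these same data. The cause of the departures was not tested.

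Against 99 genes higher and 655 lower, the number of genes higher in SC10 was 308 with the median of ratios, 269 with TMM, 257 without the barcodes found in another library, 167 without dividing cells, 238 without cells carrying cartilage genes and 303 at matched depth, where 1119 were lower. Genes at the level numbered 9541 without the barcodes found in another library and 9617 at matched depth. A minimum of 20 CPM gave 54 higher and 317 lower, and no level filter beyond 10 summed UMIs gave 637 and 2800. The fibrogenic genes lower numbered 0 with the median of ratios, and 2 without the barcodes of another library, without cartilage-gene cells and at matched depth, where the mesenchymal progenitor genes lower numbered 2, 3 and 3. Without cartilage-gene cells 7 cartilage matrix genes were lower. That cut removes cells by the same genes, so a smaller count follows from it. It left 593 of 1468 cells in SC9 and 10130 of 11603 in SC10.

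With SC5 in place of SC9, 2289 of 8835 genes were higher and 279 lower in SC10 (median over all genes 0.47). Among them were 5 fibrogenic genes higher and 0 lower and 10 cartilage matrix genes higher and 0 lower. Cartilage genes under 5 CPM in SC5 reached the level only through SC10, so their direction was fixed beforehand. The log2 ratios (SC10 over SC5) that turned were, for cartilage matrix and its regulators, Ucma 5.67, Cnmd 6.43, Matn3 3.42, Col2a1 9.42, Col9a3 6.02, Col9a1 4.59, Col11a2 3.46, Hapln1 9.48, Matn4 3.01, Col9a2 4.92, Sox6 2.65, Fgfr3 2.13, Wwp2 1.91 and Sox5 1.36. For bone, tendon and contractile genes they were Sp7 3.66, Alpl 2.41, Dlx5 0.60, Ibsp 11.11, Egr1 2.42 and Myh11 1.44. For other matrix genes they were Col1a1 1.82, Omd 1.54, Fmod 1.37, Nov 1.35, Cyr61 1.25, Sparcl1 0.12, Mmp13 1.39 and Mmp2 0.44. For signalling genes they were Ltbp4 0.88, Bmp4 0.08, Smad6 1.31, Bambi 0.36, Frzb 1.83, Dkk3 2.27, Igf1 0.80 and Igfbp4 1.24. For immune, adipogenic and immediate early genes they were Ccl9 -1.87, Ifit3 0.16, Ifit1 0.31, Iigp1 0.43, Cebpa 0.96, Dusp1 2.71, Atf3 0.85, Zfp36 1.98 and Klf4 0.85. Among genes at the upper end they were Il1rl1 -1.69, Ndufa4l2 -0.40, Ccl2 -2.03, Eif4ebp1 -0.63, Itga5 -0.14, Pdlim1 -0.15 and S100a4 -1.22.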

Other observations

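Below the level at which genes were named by ratio stood several genes that were higher in SC10, singled out after their values were seen. Crabp1, which binds retinoic acid, was at 5.37 CPM in SC9 and 84.5 CPM in SC10 (log2 ratio 3.98). Il11, a cytokine of injured stroma, was at 10.6 and 78.1 CPM (2.88), and Ereg, a ligand of the epidermal growth factor receptor, at 2.26 and 35.5 CPM (3.97). Ankrd1, a target of mechanical signals, was at 0.783 and 21.0 CPM (4.75), and the chromatin protein Hmga2 at 4.65 and 33.1 CPM (2.83). In SC5 the levels were 90 CPM for Crabp1, 232 CPM for Il11, 45.7 CPM for Ereg, 2.16 CPM for Ankrd1 and 28.4 CPM for Hmga2. SC10 thus stood near SC5 for Crabp1, Ereg and Hmga2, below it for Il11 and above it for Ankrd1.

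List members under the mean of 5 CPM were left out of the counts. Among them the joint factor Gdf5 was at 6.87 CPM in SC9 and 0.461 CPM in SC10, the Wnt inhibitor Wif1 at 7.55 and 0.788 CPM, the matrix protein Cilp2 at 5.92 and 0.247 CPM and the lymphoid chemokine Ccl19 at 7.49 and 0.263 CPM. Higher in SC10 were the oxygen sensor Egln3 at 1.02 and 8.01 CPM, the gelatinase Mmp9 at 1.14 and 6.80 CPM and the cystine carrier Slc7a11 at 0.613 and 2.65 CPM.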
